A study of Xenopus laevis with 8 samples.

Results

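The genes described here are foxd4l1.1, gmnn and the zic genes zic1, zic2 and zic4, transcription factors and a cell cycle regulator of the early neural plate, measured in animal caps of the frog Xenopus laevis. Members were all probe sets whose only gene symbol in the platform annotation was one of these names, with or without the suffix .L or .S that marks the long or short subgenome copy. This gave 10 probe sets for 7 gene copies, among 32539 probe sets without controls: 1 each for foxd4l1.1.S, gmnn.L, gmnn.S and zic2.L, and 2 each for zic1.S, zic2.S and zic4.L. One further probe set, annotated to both foxd4l1.1.L and foxd5b, was left out because it carries several symbols.

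Animal caps are the ectoderm at the top of the blastula, and they form epidermis when cultured alone. The 4 groups, of 2 arrays each, were caps of uninjected embryos, of embryos given Chordin mRNA, of embryos given Chordin and Wnt3a mRNAs, and of embryos given both mRNAs with the morpholino Lrig3MO. Injection was into the animal pole at the 2-cell stage, and caps were cut at stage 9 and, according to the series text, cultured to stage 15, although the same text also speaks of RNA extraction at stage 9. Chordin binds bone morphogenetic proteins outside the cell and blocks them, Wnt3a is a secreted Wnt ligand and Lrig3 a membrane protein with leucine-rich repeats. Morpholinos are antisense oligonucleotides that stop a message from being translated or spliced. No group with the morpholino alone or with a control morpholino was analysed here. The caps hold many cells, so fewer cells of a type and less RNA per cell cannot be told apart.

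Neural tissue forms in the frog ectoderm where bone morphogenetic protein signalling is blocked. In Xenopus the forkhead factor Foxd4l1.1 (also called Foxd5) is known to act early in the neural plate, upstream of geminin and several zic genes, and to hold cells in an immature neural state. Geminin, the product of gmnn, binds the licensing factor Cdt1 and so prevents a second round of DNA replication, and it is also known to act in neural fate acquisition. The Zic proteins are zinc-finger transcription factors. Zic1 is best known at the neural plate border, where it acts with Pax3 in neural crest induction, and Zic2 in the neural plate.

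The deposited values are signal intensities scaled array by array. Array medians lay between 96.1 and 114, and 68.6% to 76.0% of probe sets were above a background set per array as the highest of 23 negative control probe sets. Arrays of a group correlated at 0.929 to 0.967 and arrays of different groups at 0.739 to 0.925. Neural plate markers rose in chordin caps over uninjected caps in 10 of 11 cases, beside 29.3% of all probe sets called in either direction. Their summed signal was 2162 and 2213 in uninjected caps and 38357 and 36577 in chordin caps. It was 4608 and 8525 with wnt3a, and 27699 and 25427 with the morpholino. Against chordin caps 5 markers fell and 1 rose with wnt3a, at a median log2 change of -1.57, beside 5.82% of all probe sets called. With the morpholino 4 rose over chordin and wnt3a caps and none fell, at a median of 0.40, beside 4.90% called. Those 4 were lost without morpholino replicate 1, and fewer falls with wnt3a were left without either chordin array. Morpholino caps had 1 marker higher and 2 lower than chordin caps, beside 11.4% called. Of the injected messages, chrd.1.S read 468 and 771 in chordin caps, 100 and 291 with wnt3a, and 156 and 159 with the morpholino. The 3 genes of the injected reagents, chrd.1.S and lrig3.S among them, were also summed. The sums were 11797 and 19818 in chordin and wnt3a caps and 32492 and 28640 in morpholino caps. Between these groups their median log2 change was 0.89. The wnt3a message is not given alone, and its part in the member values was not tested. The lrig3.S transcript read 741 and 756 in chordin and wnt3a caps and 4787 and 3002 in morpholino caps, which does not check a morpholino, since it need not lower its message.

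**Figure D1:**
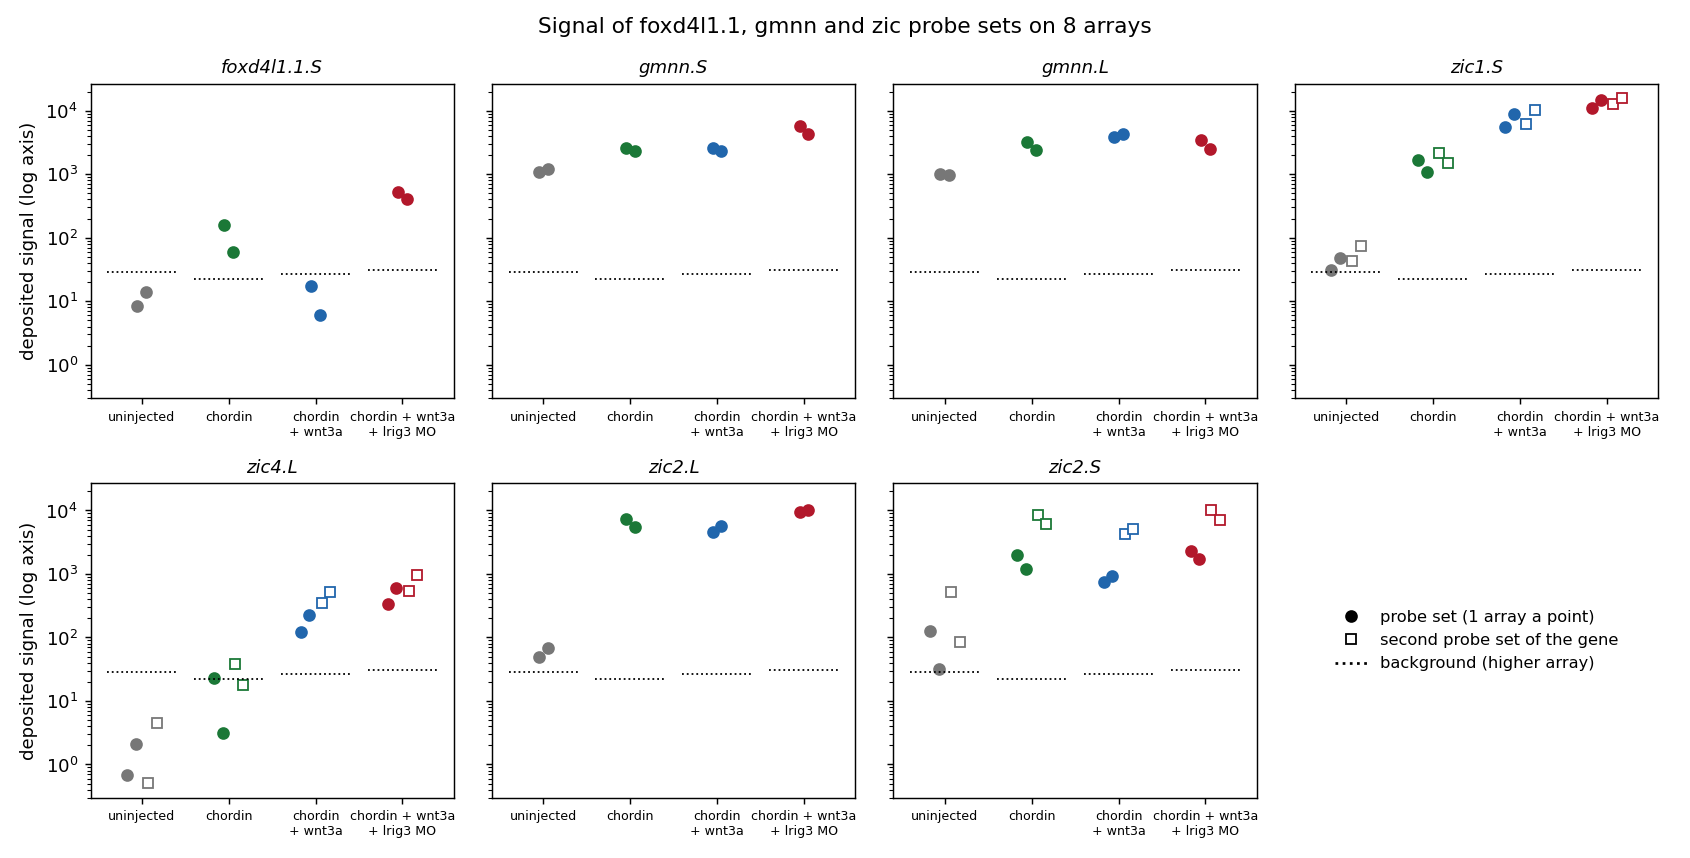
Deposited signal (log axis) of each of the 10 member probe sets on all 8 arrays, by group, with each point an array. Uninjected caps are lowest or at background for every probe set. By group mean the morpholino caps are highest for every probe set except that of gmnn.L, which is highest in chordin and wnt3a caps.

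Nearly all of these genes were higher with chordin. Over uninjected caps 9 of the 10 probe sets rose and none fell in limma's fit of all 22000 probe sets that passed a filter on low signals, at a Benjamini-Hochberg adjusted p below 0.05, where 29.3% of all probe sets were called (3866 higher and 2579 lower). No member was lower at an unadjusted p below 0.05 either. The members' median log2 change was 3.57, and that of all probe sets 0.09. Members and gene lists were chosen with earlier results of these data known. Their counts beside the shares over all probe sets are therefore descriptions, here and below. All 10 probe sets passed the filter, but foxd4l1.1.S and both zic4.L probe sets did so on only 4 of 8 arrays. The first zic1.S probe set did so on 6, those of the injected groups. These were the arrays of the groups in which the probe sets were high, so their passing already required a difference.

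Markers of other cell types moved in the same comparison. With chordin 6 of 14 epidermis markers fell, with summed signals of 150430 and 131300 in uninjected caps and 37667 and 52244 in chordin caps, though 2 fell under spike-in scaling and 1 to 3 without any 1 of the uninjected or chordin arrays. Of the multiciliated cell markers 6 of 8 tested fell, from 14820 and 14623 to 321 and 1059, though 1 fell without uninjected replicate 1 and 3 without chordin replicate 1. Of the cement gland markers 3 of 5 rose, from 23879 and 14786 to 68743 and 81116, and with wnt3a all 5 fell, to 4313 and 2609 (3 under spike-in scaling, without either chordin array and without chordin and wnt3a replicate 2). Over all probe sets 29.3% were called with chordin (3866 higher and 2579 lower) and 5.82% with wnt3a (678 higher and 602 lower). The part of these cell types in the chordin and wnt3a values of the members was not tested.

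The forkhead gene foxd4l1.1.S had signals of 8.51 and 14.0 in uninjected caps, 158 and 60.1 in chordin caps, 17.3 and 6.06 in chordin and wnt3a caps, and 532 and 415 in morpholino caps. The uninjected and the wnt3a arrays were all at background, and neither the chordin nor the morpholino arrays overlapped them or each other. The highest levels were those with the morpholino.

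Over uninjected caps foxd4l1.1.S rose with chordin by a log2 change of 2.67 (SE 0.541, 95% interval 1.39 to 3.95, limma adjusted p = 0.0129), at least 3.83-fold. Against chordin caps it fell with wnt3a by at least 4.23-fold (log2 change -2.69, SE 0.541, limma adjusted p = 0.0344). With the morpholino it rose over chordin and wnt3a caps by at least 20.4-fold (log2 change 4.90, 95% interval 3.62 to 6.18, limma adjusted p = 0.0168). "At least" means that the dimmer group was at background, so its level is only bounded. Morpholino caps also exceeded chordin caps, by 4.60-fold (log2 change 2.20, limma adjusted p = 0.0456). The rise with chordin was no longer called without uninjected replicate 1 (limma adjusted p = 0.0708) or chordin replicate 1 (0.0717), and the rise with the morpholino without morpholino replicate 1 (log2 change 4.72, 0.0967) or chordin and wnt3a replicate 2 (log2 change 4.40, 0.0873). The fall with wnt3a was lost in 6 of the 8 fits without 1 array, at limma adjusted p of 0.0524 to 0.175, and stayed called without chordin replicate 2 or chordin and wnt3a replicate 1.

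The geminin copies were present on all 8 arrays and moved over a smaller range. For gmnn.L the signals were 1004 and 962 in uninjected caps, 3179 and 2444 in chordin caps, 3908 and 4267 with wnt3a, and 3416 and 2452 with the morpholino. For gmnn.S they were 1102 and 1226, 2566 and 2287, 2568 and 2356, and 5728 and 4281 in the same order. The copies thus had their highest signals in different groups, gmnn.L in the chordin and wnt3a caps and gmnn.S in the morpholino caps.

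With chordin gmnn.L rose 2.83-fold (log2 change 1.50, SE 0.201, limma adjusted p = 0.00343) and gmnn.S 2.08-fold (1.06, SE 0.172, limma adjusted p = 0.00637). Adding wnt3a left both uncalled, gmnn.L at a log2 change of 0.55 (95% interval 0.08 to 1.03, limma adjusted p = 0.208) and gmnn.S at 0.02 (95% interval -0.39 to 0.43, limma adjusted p = 0.977). With the morpholino gmnn.S rose 2.01-fold over chordin and wnt3a caps (log2 change 1.01, 95% interval 0.60 to 1.42, limma adjusted p = 0.0307), whereas gmnn.L was at -0.50 (95% interval -0.97 to -0.02, limma adjusted p = 0.194). The gmnn.S call was lost in 7 of the 8 fits without 1 array, at limma adjusted p of 0.0564 to 0.133, and remained only without morpholino replicate 2 (log2 change 1.22, limma adjusted p = 0.0368).

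The difference between the copies within an array is almost unaffected by a scaling factor common to the whole array. The log2 signal of gmnn.S minus that of gmnn.L was 0.13 and 0.35 in uninjected caps, -0.31 and -0.10 in chordin caps, -0.61 and -0.86 in chordin and wnt3a caps, and 0.75 and 0.80 in morpholino caps. Each group stood apart from the others, and from the wnt3a caps to the morpholino caps the difference moved by 1.50. The exact two-sided permutation test gave p = 0.333, the smallest that 2 arrays against 2 can give. Groups of 2 that do not overlap always give this value, so the test cannot decide whether they differ. The copies have different probe sets, so only changes of this difference between groups can be read, and cross-hybridisation between them was not tested.

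Genes of replication origin licensing, the process that geminin restrains, and of origin firing are given beside gmnn. With chordin 18 of 25 rose and none fell, by limma or at an unadjusted p below 0.05, with a median log2 change of 1.14, beside 29.3% called and a median of 0.09 over all probe sets. Among them cdt1.L, the partner of geminin, read 879 and 1241 in uninjected caps and 3139 and 2917 in chordin caps (log2 change 1.53, limma adjusted p = 0.00233), and the helicase subunit mcm4.S rose by 3.22 (limma adjusted p = 0.000263). With wnt3a 6 fell and none rose, among them the licensing factor cdc6.S (log2 change -2.03, limma adjusted p = 0.00381) and the GINS subunit gins2.L (-1.64, limma adjusted p = 0.00915), and the list median was -0.34, beside 5.82% called and a median of -0.01 over all probe sets. The count of falls was 1 without either chordin array or under spike-in scaling, and 3 without either chordin and wnt3a array. With the morpholino 3 rose, cdc6.L (1.73, limma adjusted p = 0.0163), gins2.L (1.26, 0.0351) and cdc6.S (1.03, 0.0488), and 2 fell, orc4.L and cdc45.L, while the median was 0.04, beside 4.90% called and a median of 0.03 over all probe sets. With the replicate block 5 fell, and 3 rose in both fits. Under spike-in scaling none rose and 9 fell, and in the 8 fits without 1 array at most 1 rose and at most 1 fell. Limma called none of the list without morpholino replicate 1, where 3 genes were higher and 4 lower at an unadjusted p below 0.05. The geminin relative mcidas.S, a regulator of multiciliated cells, went the other way from gmnn with chordin. It read 794 and 536 in uninjected caps and 3.80 and 21.9 in chordin caps, at least 30.2-fold lower (limma adjusted p = 0.00870). This call was lost without uninjected replicate 1 or chordin replicate 1.

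The zic1.S gene was above background on all 8 arrays by both of its probe sets. On uninjected replicate 1 its first probe set was only just above, at 31.5 beside a background of 28.7. Its folds over uninjected caps thus rest on signals near background. Its first probe set read 31.5 and 48.1 in uninjected caps, 1665 and 1082 in chordin caps, 5481 and 8775 in chordin and wnt3a caps, and 11072 and 14779 in morpholino caps. The second read 42.6 and 73.1, 2135 and 1484, 6114 and 10227, and 12569 and 15904. In both the groups followed one order without overlap, uninjected, chordin, chordin and wnt3a, morpholino.

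By the first probe set zic1.S rose 30.5-fold with chordin (log2 change 4.93, SE 0.331, limma adjusted p = 0.000451) and a further 5.15-fold with wnt3a (log2 change 2.37, SE 0.331, limma adjusted p = 0.00975). By the second the same changes were 29.2-fold (4.87, limma adjusted p = 0.000534) and 4.43-fold (2.15, limma adjusted p = 0.0166). The step to the morpholino caps was not called: the log2 change was 0.88 (95% interval 0.10 to 1.67, limma adjusted p = 0.167) by the first and 0.84 (95% interval 0.02 to 1.66, limma adjusted p = 0.201) by the second. The rise with wnt3a was lost by both probe sets without chordin replicate 2 (log2 changes 2.06 and 1.89) or chordin and wnt3a replicate 2 (2.03 and 1.78), and by the second without chordin replicate 1 (2.41), at limma adjusted p of 0.0534 to 0.0954.

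The zic4.L probe sets showed the same order from a lower start. Zic4 is the neighbour of zic1 on chromosomes 5L and 5S in the RefSeq annotation of Xenopus_laevis_v10.1, and the measured zic1 and zic4 copies lie on different subgenomes. The first probe set read 0.686 and 2.07 in uninjected caps, 22.8 and 3.13 in chordin caps, 120 and 228 in chordin and wnt3a caps, and 342 and 609 in morpholino caps. The second read 0.502 and 4.55, 38.0 and 18.0, 353 and 517, and 543 and 961. Uninjected caps were at background, and in chordin caps each probe set was above background on 1 of 2 arrays.

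With wnt3a zic4.L rose over chordin caps by a log2 change of 3.48 by the first probe set (SE 0.640, limma adjusted p = 0.0258) and of 3.77 by the second (SE 0.471, limma adjusted p = 0.00612). Since 1 of the 2 chordin arrays was below background, the measured rise is bounded: with that array set to its background, it was at least 7.32-fold by the first probe set and at least 14.6-fold by the second. The second call held in all 8 fits without 1 array. The first was lost in 5 of them, at limma adjusted p of 0.0519 to 0.146: without either uninjected array, without chordin replicate 2 and without either chordin and wnt3a array. With chordin alone the probe sets disagreed, the first not called (log2 change 1.22, limma adjusted p = 0.191) and the second called (2.08, limma adjusted p = 0.0183) but bounded at only 1.03-fold, and lost without uninjected replicate 1 or chordin replicate 1 (limma adjusted p = 0.0947 and 0.102). The morpholino step had log2 changes of 1.43 and 0.75 and was not called (limma adjusted p = 0.231 and 0.382).

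The zic2 copies rose with chordin and then stayed within a narrower range. For zic2.L the signals were 49.7 and 67.3 in uninjected caps, 7374 and 5485 in chordin caps, 4592 and 5730 in chordin and wnt3a caps, and 9519 and 9996 in morpholino caps. The first zic2.S probe set read 126 and 32.3, 2008 and 1203, 758 and 933, and 2296 and 1712. The second read 511 and 86.3, 8474 and 6190, 4189 and 5073, and 10280 and 7110. The uninjected arrays were far below the rest in all 3 probe sets, and for zic2.S they differed from each other more than the arrays of any injected group did.

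With chordin zic2.L rose 101-fold (log2 change 6.66, SE 0.213, limma adjusted p = 9.48e-05), and zic2.S rose 22.3-fold by its first probe set (4.48, SE 0.566, limma adjusted p = 0.00312) and 33.3-fold by its second (5.06, SE 0.717, limma adjusted p = 0.00444). Adding wnt3a gave log2 changes of -0.31 for zic2.L (95% interval -0.81 to 0.19) and of -0.88 and -0.65 for zic2.S, none of them called (limma adjusted p = 0.568, 0.534 and 0.772). Adding the morpholino gave 0.93 for zic2.L (95% interval 0.42 to 1.43, limma adjusted p = 0.0572) and 1.23 and 0.89 for zic2.S (limma adjusted p = 0.245 and 0.504). The zic2.L rise was called with the replicate number as a block (limma adjusted p = 0.0350) and at a pseudocount of 20 (0.0469). No other member's call changed with the block.

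Zic5 neighbours zic2 on chromosomes 2L and 2S. The zic5.S gene, a further zinc-finger gene of the family, read 125 and 3.50 in uninjected caps, 3443 and 2301 in chordin caps, 1416 and 1748 with wnt3a, and 2699 and 1998 with the morpholino. It rose with chordin (log2 change 6.39, SE 1.09, limma adjusted p = 0.00793), a call lost without chordin replicate 1 (log2 change 6.09, limma adjusted p = 0.0593). With uninjected replicate 2, which was below background, set to its background, the rise was at least 53.0-fold. With wnt3a (-0.84) and the morpholino (0.56) it was not called (limma adjusted p = 0.820 and 0.802).

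**Figure D2:**
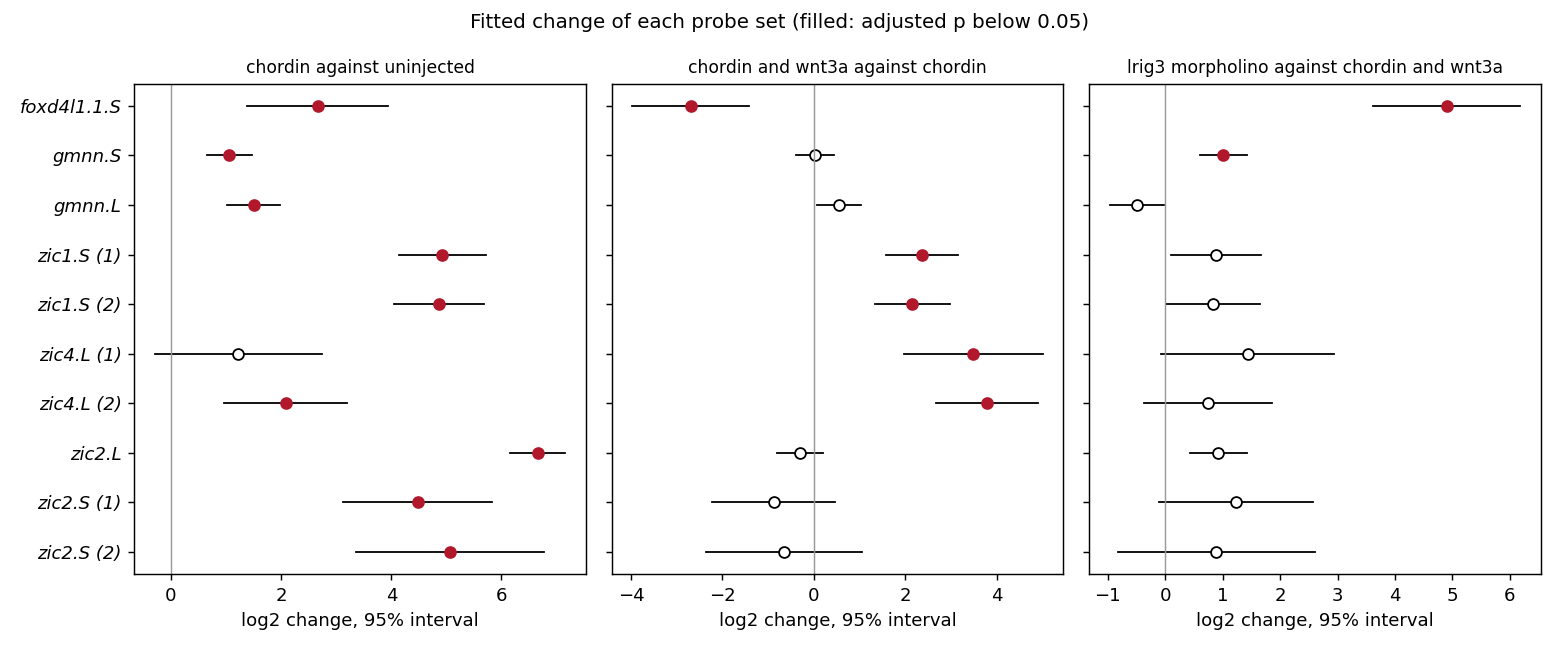
Fitted log2 change of each member probe set with its 95% interval in the successive comparisons chordin against uninjected, wnt3a added to chordin, and the morpholino added to both. Of the members foxd4l1.1.S was called in each of the 3, zic1.S and zic4.L were called higher with wnt3a, and the zic2 probe sets were called with chordin alone.

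In the comparison of chordin and wnt3a with chordin alone, 4 member probe sets rose and 1 fell, 5 of 10, where 5.82% of all probe sets were called (678 higher and 602 lower). The 4 that rose were those of zic1.S and zic4.L, and the 1 that fell was foxd4l1.1.S. The members' median log2 change was 0.29 and that of all probe sets -0.01. The 4 probe sets stand for 2 genes. Of the 5 called, foxd4l1.1.S and both zic4.L probe sets passed the filter only on arrays of groups where they were high. Their passing already required a difference, so the share over all probe sets is not a like measure for them.

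The morpholino comparison called 2 of the 10 probe sets, foxd4l1.1.S and gmnn.S, both higher, where 4.90% of all probe sets were called (601 higher and 476 lower). None was lower, with 1, gmnn.L, lower at an unadjusted p below 0.05 and 5 higher. The members' median log2 change was 0.91, that of all probe sets 0.03, and 9 of 10 log2 changes were above 0. Of the 2 called, foxd4l1.1.S passed the filter only on arrays of groups where it was high, so its passing already required a difference. Without morpholino replicate 1 limma called none of the 10 and 0 of all 22000 probe sets, while at an unadjusted p below 0.05 4 members were higher and 1 lower. Over all probe sets 2320 were then higher and 1715 lower at that unadjusted level.

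The morpholino arrays differed from each other in markers of other cell types. Summed over 15 mesoderm and muscle markers, the signal was 8865 on morpholino replicate 1 and 398 on replicate 2, and between 226 and 1075 on the other 6 arrays. The mesoderm factor tbxt.L read 1835 and 10.5 on the morpholino arrays and the muscle actin actc1.L 1709 and 32.4. On replicate 1, 14 of the 15 markers were above background, and on replicate 2, 5 were. The other way round, replicate 2 was higher in epidermis markers (summed 31336 on replicate 1 and 66374 on replicate 2, with foxi1.L at 3.98 and 1507), in multiciliated markers (942 and 3449) and in cement gland markers (2161 and 4935, with agr2.L at 57.7 and 1289). The arrays of caps with chordin and wnt3a differed from each other in epidermis markers too, at 58373 and 13823.

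The members differed between the morpholino arrays in both directions. On the log2 scale replicate 1 exceeded replicate 2 by 0.36 for foxd4l1.1.S, 0.42 for gmnn.S, 0.48 for gmnn.L and 0.42 and 0.53 for zic2.S, and the difference was -0.07 for zic2.L, -0.42 and -0.34 for zic1.S and -0.82 for both zic4.L probe sets. The part of these cell types in the member values was not tested.

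Scaling also bears on this comparison. The spike-in poly-A controls, added to the RNA before labelling, had median log2 signals of 8.62 and 8.41 in chordin and wnt3a caps, 9.60 and 9.35 in morpholino caps, 8.58 and 8.33 in chordin caps, and 9.54 and 8.80 in uninjected caps. When arrays were scaled to these controls, the median log2 change of all probe sets in the morpholino comparison moved from 0.03 to -0.90, with 160 higher and 6171 lower. Under that scaling foxd4l1.1.S still rose (log2 change 4.08, limma adjusted p = 0.00717), gmnn.S was at 0.05 (0.919) and gmnn.L fell (-1.46, limma adjusted p = 0.0189). The zic probe sets lay between -0.20 and 0.49 with none called. The chordin comparison moved the other way, to a median of 0.78 with 6841 higher and 721 lower, and the wnt3a comparison to -0.07 with 462 higher and 441 lower.

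**Figure D3:**
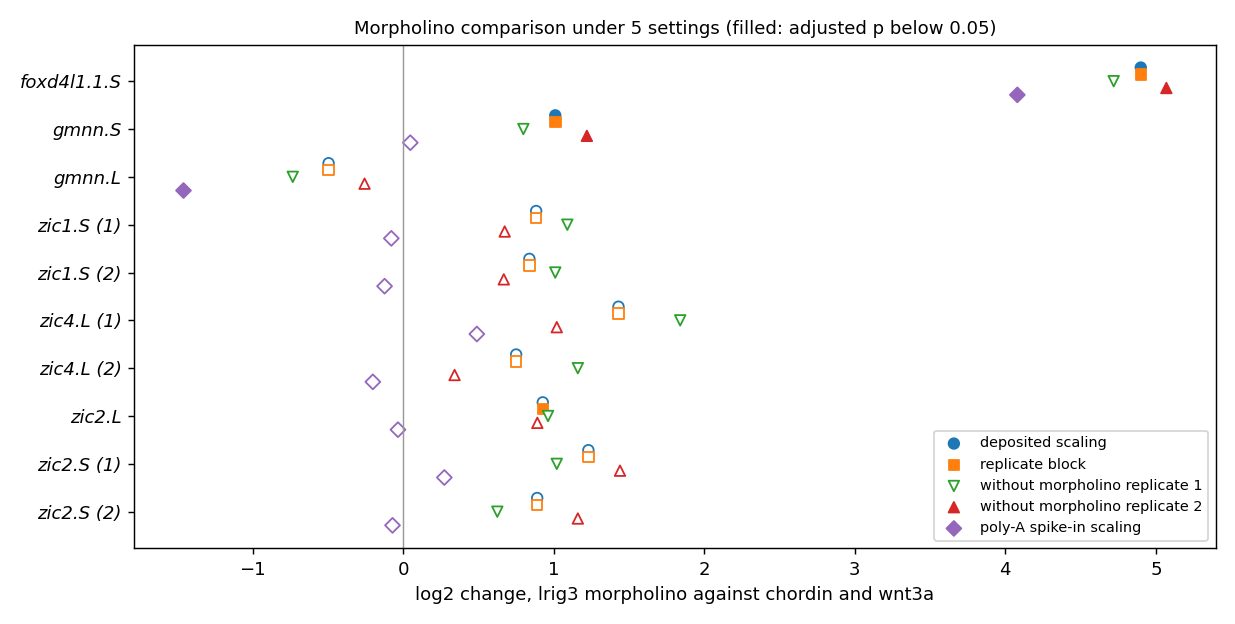
Log2 change of each member probe set with the morpholino added to chordin and wnt3a, under array scaling, spike-in scaling, the replicate block, and without either morpholino array. foxd4l1.1.S lies between 4.08 and 5.07 in these 5 settings, the other probe sets lie between -1.46 and 1.84, and all shift down under spike-in scaling.

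Other genes of the neural plate network were read from a list of sox, irx and further zic and foxd4l1 genes, of which 10 of the 11 on the array were tested. The exception, foxd4l1.2.L, was at background on all 8 arrays. Over all probe sets 29.3% were called with chordin, 5.82% with wnt3a and 4.90% with the morpholino, with medians of 0.09, -0.01 and 0.03. In the list 6 rose and 1 fell with chordin, with a median log2 change of 2.16, and 3 rose and 4 fell with wnt3a, with a median of -0.27. The wnt3a rises were 1 without either chordin array or without chordin and wnt3a replicate 2, and the falls 2 without chordin replicate 1. With the morpholino 5 rose and none fell, also at an unadjusted p below 0.05, with a median of 1.44. These 5 were sox2.L, sox3.L, sox3.S, sox11.S and irx1.S. Sox2 and sox3 are also among the neural plate markers above, so the counts of these lists overlap. Without morpholino replicate 1 none was called and 7 were higher at an unadjusted p below 0.05, without any chordin or chordin and wnt3a array 3 rose, and under spike-in scaling 3 rose and 1 fell.

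Sox2 and sox3, factors of neural progenitors, moved as foxd4l1.1.S did, though not to background. The sox2.L signals were 245 and 213 in uninjected caps, 9627 and 7027 in chordin caps, 314 and 787 with wnt3a, and 5529 and 4065 with the morpholino. Its log2 changes were 5.14 with chordin (limma adjusted p = 0.000839), -4.03 with wnt3a (0.00355) and 3.24 with the morpholino (0.0216). For sox3.S the signals were 933 and 844, 8987 and 8044, 391 and 1128, and 10335 and 9546, with a rise of 3.89 with the morpholino (limma adjusted p = 0.0168). The neural progenitor gene sox11.S read 186 and 243, 8648 and 7593, 2993 and 4178, and 10997 and 8526, and it too fell with wnt3a (log2 change -1.20, limma adjusted p = 0.0273) and rose with the morpholino (1.45, 0.0260). The sox11.S fall was lost under spike-in scaling (limma adjusted p = 0.128), with plain eBayes (0.0553) and without either chordin array or chordin and wnt3a replicate 1 (0.0981 to 0.163). Its rise was lost under spike-in scaling (log2 change 0.49, limma adjusted p = 0.325) and without any chordin or chordin and wnt3a array or morpholino replicate 1 (0.0506 to 0.110). The sox3.S fall with wnt3a, of -3.67, was lost without chordin replicate 1 (0.0529).

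Genes of the Iroquois family of homeobox factors rose with wnt3a, as zic1.S and zic4.L did. The irx1.L signals were 53.0 and 50.5 in uninjected caps, 25.0 and 15.4 in chordin caps, 680 and 992 with wnt3a, and 934 and 1728 with the morpholino. It rose with wnt3a (log2 change 5.05, limma adjusted p = 0.000725), at least 34.7-fold since 1 of 2 chordin arrays was below background. The genes irx2.L (3.31, limma adjusted p = 0.00927) and irx1.S (1.68, limma adjusted p = 0.00975) rose too, both calls lost without either chordin array or chordin and wnt3a replicate 2 (0.0523 to 0.0759) and that of irx1.S under spike-in scaling (0.0563). Unlike zic1.S and zic4.L, irx1.L was lower in chordin caps than in uninjected caps (log2 change -1.19, limma adjusted p = 0.0493), a call at the threshold that was lost at a pseudocount of 20, without the filter, under spike-in scaling (limma adjusted p = 0.343) and without any array of the uninjected, chordin, or chordin and wnt3a groups (0.0581 to 0.198).

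Neural plate border and crest genes, among which zic1 acts, were set beside the zic genes. With wnt3a 19 of 21 rose and none fell, with a median log2 change of 4.95, beside 5.82% called over all probe sets. With the morpholino 8 fell and none rose (1 was higher at an unadjusted p below 0.05), with a median of -1.37, beside 4.90% called over all probe sets. The crest factors snai2.L (log2 change -2.15, limma adjusted p = 0.00983), twist1.L (-3.21, 0.0238) and sox10.L (-3.35, 0.0430) were among these 8. At a pseudocount of 1 the falls were 4, with sox10.L lost (limma adjusted p = 0.0943), and with plain eBayes 5. Fewer than 8 were left in every fit without 1 array. No call of a fall was left without morpholino replicate 1, with 11 lower at an unadjusted p below 0.05, nor without either chordin and wnt3a array, and under spike-in scaling 18 fell. In the same comparison the log2 changes of zic1.S were 0.88 and 0.84 and those of zic4.L 1.43 and 0.75, and under spike-in scaling those of zic1.S were -0.08 and -0.12 and those of zic4.L 0.49 and -0.20, none of them called.

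**Figure D4:**
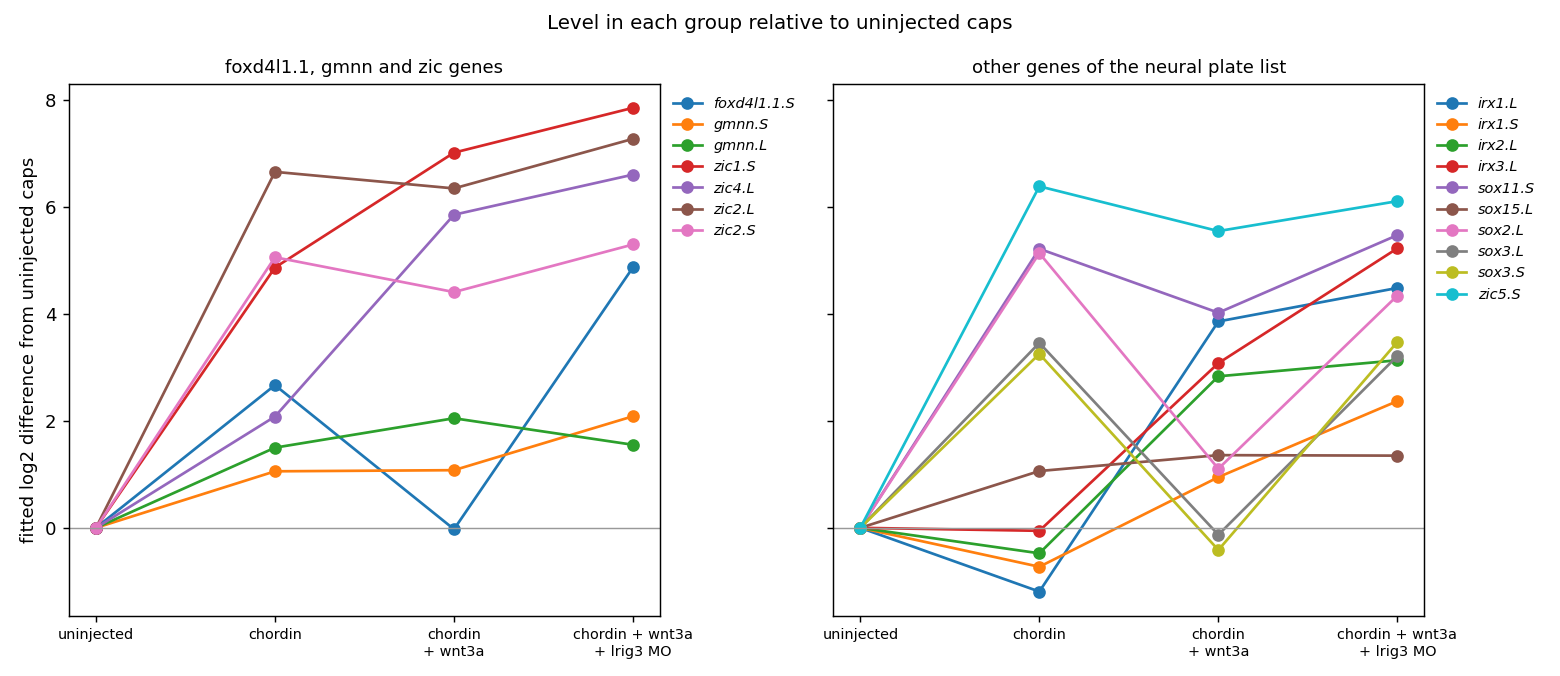
Fitted log2 difference from uninjected caps in each group for the brightest probe set of each member gene (left) and for the 10 tested genes of the neural plate network list (right), with lines joining the groups of a gene. foxd4l1.1.S, sox2.L and sox3.S are lower with wnt3a than with chordin and higher again with the morpholino, while zic1.S, zic4.L and irx1.L are higher with wnt3a.

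Proneural and neuronal genes act after the early neural plate genes. Of 13 on the array 8 were tested, and 2 rose with chordin, a share near the 29.3% called over all probe sets. With wnt3a 2 rose, beside 5.82% called over all probe sets, and with the morpholino 1, beside 4.90%. That 1 was the Notch ligand dll1.L (log2 change 3.39, limma adjusted p = 0.0312), and no gene of the list fell with the morpholino, by limma or at an unadjusted p below 0.05. With the morpholino the list had no call in 6 of the 8 fits without 1 array, all but those without chordin replicate 2 or morpholino replicate 2. Fewer of the list's rises with chordin and with wnt3a were called in some of those fits, and some called a fall. In the main fit no gene of the list fell in either comparison, with 1 lower in each at an unadjusted p below 0.05. With wnt3a 1 gene fell under spike-in scaling and with the replicate block.

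Against uninjected caps, 9 of 10 member probe sets rose in chordin and wnt3a caps, where 33.7% of all probe sets were called (4172 higher and 3242 lower, and 6586 and 1170 under spike-in scaling). The exception was foxd4l1.1.S, at background in both groups. In morpholino caps all 10 rose over uninjected caps, where 36.2% were called (4606 higher and 3363 lower, and 1473 and 2450 under spike-in scaling), with zic1.S 289-fold and 231-fold and zic2.L 155-fold higher and foxd4l1.1.S at least 18.5-fold. These comparisons share the uninjected arrays, so their likeness is not a separate result. As above, the passing of foxd4l1.1.S, zic4.L and the first zic1.S probe set through the filter already required a difference.

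Compared with chordin caps, 6 probe sets rose in morpholino caps and none fell, where 11.4% were called (1346 higher and 1158 lower, and 419 and 8605 under spike-in scaling). They were foxd4l1.1.S, gmnn.S (log2 change 1.03, limma adjusted p = 0.0158), both of zic1.S (3.25 and 2.99) and both of zic4.L (4.92 and 4.52). With the chordin array below background set to its background, the zic4.L rises were at least 20.2-fold and 24.7-fold. The zic2 probe sets and gmnn.L were between 0.05 and 0.62 and not called. Here too the passing of zic4.L through the filter already required a difference, while foxd4l1.1.S passed on the arrays of both groups compared. The gmnn.S rise over chordin caps was lost without chordin replicate 1 or 2 or morpholino replicate 1 (limma adjusted p of 0.0642 to 0.0930) and under spike-in scaling (0.982). That of foxd4l1.1.S was lost in 6 of the 8 fits without 1 array (limma adjusted p of 0.0617 to 0.200), all but those without a chordin and wnt3a array, and at a pseudocount of 1, a stricter filter or spike-in scaling. The calls for zic1.S and zic4.L held in all 8.

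The genes with the most similar profiles over the 8 arrays, among 8816 genes, differed between the members, and groups of 2 arrays make up most of each profile. For foxd4l1.1.S they were obi1.L (Pearson r = 0.978), ccna2.L (0.974), which encodes cyclin A2, and pheta2.L (0.971). Closest to gmnn.S were the cyclin gene ccnb3.S (0.995), the kinetochore gene nuf2.L (0.993) and c8orf76.L (0.992), and closest to gmnn.L were polg2.L (0.990), st3gal6.L (0.988) and uri1.L (0.986). For zic1.S they were the FGF receptor gene fgfr4.L (0.991), cnpy2.L (0.987) and etfbkmt.S (0.984). For zic4.L they were the Wnt receptor gene ror2.L (0.992), rab11fip4l.L (0.991) and rbm8a.S (0.990). Those of zic2.L were pard6g.S (0.994), thap11.L (0.993) and cited2.L (0.993), and those of zic2.S were zic5.S (0.994), pias4.L (0.984) and nudt21.L (0.980). The ror2.L signals were 38.4 and 29.7 in uninjected caps, 234 and 86.2 in chordin caps, 1238 and 1888 with wnt3a, and 2678 and 3407 with the morpholino.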

How the data were processed

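RNA of animal caps from 4 groups was hybridised to arrays of 32635 probe sets, with 2 samples per group and 1 array per sample. The authors deposited 1 signal intensity per probe set and array, on a linear scale, made with MAS5 per the submitters' processing notes (version not stated there). On each deposited array the 2% trimmed mean was 500.1 or 500.2, so the arrays had been scaled to a common mean. Per the labels' protocols, biotin-labelled RNA was made from total RNA by in vitro transcription. Sample titles gave the group and the replicate number.

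The 96 control probe sets were left out. Signals were taken as log2(signal + 5.22), where 5.22 is the 10th percentile of the whole table. This scale understates changes of low signals. Probe sets above the 40th percentile of their array on at least 2 arrays were kept, 22000 of 32539. Limma 3.58.1 in R 4.3.3 (lmFit, eBayes with trend and robust) fitted group means on all 8 arrays, and p-values were adjusted by Benjamini-Hochberg within each comparison over all kept probe sets. Changes were called at an adjusted p below 0.05. The fit was also run on simulated data with independent noise and no replicate effect, so that run does not test how well the p-values here hold. Background was the highest of 23 negative control probe sets per array, and a fold against a group at background is a bound against that level, or the probe set's own signal where that was higher. Where 1 of the 2 arrays of the dimmer group was below background, that array alone was set to its background.

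Symbols come from the platform annotation, updated through a RefSeq table (Xenopus_laevis_v10.1) to which 15394 entries matched; 15495 probe sets had 1 symbol, 279 several and 16765 none. No coordinates are printed, since no source used here names the genome build of the array. Named were all member probe sets, for each member gene the 3 genes of highest Pearson correlation over the arrays, and zic5, sox2, sox3 and sox11. Also named were a few called genes of each list by size of change, with each listed gene taken at its brightest probe set. Some genes were named for other reasons. Among them were cdt1.L as the partner of geminin, chrd.1.S and lrig3.S, and markers that differed between the morpholino arrays (tbxt.L, actc1.L, foxi1.L and agr2.L). The members and the gene lists were chosen with earlier results of these data known, so their counts beside the shares over all probe sets are not tests.

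Whether replicates came from separate embryo batches is not in the labels, so the spread that enters a p-value is that between these samples and may be technical, and the number of arrays limits the precision. For each of the 6 pairs of groups, the differences between replicates 1 and 2 were correlated (0.172 to 0.505). The gapdh 3' to 5' ratio lay between 1.26 and 1.41 in replicate 1 and between 1.61 and 1.76 in replicate 2. The replicate numbers were therefore taken as pairs in an alternative fit, the replicate block. The main fit, which gave the p-values unless the block is named, did not pair them. Alternatives were other pseudocounts and filters, quantile normalization, scaling to the poly-A controls, a replicate block, eBayes without trend and robust, and leaving out each array.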

Additional observations from a re-analysis of the deposited data

How the results depend on the processing

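Of the 60 member changes fitted, 41 were called. All 41 kept their sign in every alternative, 35 stayed called in every alternative that kept all arrays, and 31 in every fit without 1 array. In the latter fits the group left with 1 array is assumed to vary like the others. The number of member probe sets called then ran from 7 to 9 with chordin, 1 to 4 with wnt3a, 0 to 2 with the morpholino, 4 to 6 for morpholino against chordin caps, 9 to 9 for chordin and wnt3a against uninjected caps and 10 to 10 for morpholino against uninjected caps. Over all probe sets the ranges were 2298 to 6516, 449 to 1358, 0 to 462, 520 to 2165, 2926 to 7417 and 3151 to 7601 in that order. The limma count of 0 with the morpholino came without morpholino replicate 1, with 2320 higher and 1715 lower at an unadjusted p below 0.05. A filter at the 60th percentile left 3 members called with wnt3a, and eBayes without trend and robust left 1 with the morpholino. With the replicate block, the pairing by replicate number, 2031 probe sets were called with wnt3a, 3289 with the morpholino and 4726 for morpholino against chordin caps. The member calls were those without the block except for zic2.L with the morpholino. Spike-in scaling called 6331 with the morpholino, 9024 for morpholino against chordin and 3923 for morpholino against uninjected caps.

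The changes that reversed sign had not been called with the deposited scaling. Under spike-in scaling these were, with the morpholino, zic1.S (-0.0792 and -0.124), zic2.L (-0.0351), the second zic2.S probe set (-0.0713), the second zic4.L probe set (-0.202) and zic5.S (-0.400); with wnt3a, gmnn.S (-0.0369); for morpholino against chordin caps, gmnn.L (-0.965, then called, limma adjusted p = 0.0402), zic2.L (-0.404) and zic2.S (-0.668 and -0.782); and for chordin and wnt3a against uninjected caps foxd4l1.1.S (0.372), at background in both groups and also reversed at a pseudocount of 20 (0.00281). In the fits without 1 array, gmnn.S with wnt3a ranged from -0.0609 to 0.105 and foxd4l1.1.S in the last comparison from -0.526 to 0.473. Against chordin caps, with the morpholino, gmnn.L ranged from -0.184 to 0.293, and the zic2.S probe sets from -0.0185 to 0.719 and from -0.0267 to 0.505. The cause was not tested. Levels of foxd4l1.1.S and zic4.L near background, and that of the first zic1.S probe set in uninjected caps, are limited by the signal over background.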
